A study of Mus musculus with 9 samples.

Results

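The comparison described here sets castrated mice that carried a testosterone pellet against intact mice, in the gastrocnemius, a calf muscle made mostly of fast fibres. It rests on 6 of the 9 arrays of the study, namely the 3 labelled testosterone and the 3 labelled sham, and on 18193 genes, each read from its brightest probe set listed to that gene alone. All mice were young adults of the outbred CD-1 stock, were not fasted, and were sampled 14 days after surgery. The sham group underwent a mock operation and carried a placebo pellet. In the testosterone group the testes were removed and a pellet of 2.5 mg testosterone, made to release over 60 days, was placed under the skin at once. The 3 castration arrays, from castrated mice with placebo pellets, serve as the reference for what loss of the testes does. Each array pooled equal RNA from 3 animals, so the spread between arrays is a spread between pools, and an animal's own level is averaged away.

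Testosterone is a steroid hormone of the testis that enters cells and alters the transcription of target genes. Fibres, satellite cells and fibroblasts of muscle respond to it, and it supports fibre mass. Known responding genes in muscle and prostate include Odc1 and Smox, enzymes of polyamine synthesis and interconversion, and Fkbp5, a co-chaperone of steroid receptors that androgens and glucocorticoids both induce. A pellet replaces the hormone without the testis and without its normal regulation by the pituitary, and the question posed by the design was the overall effect of castration plus replacement against the intact state. Blood hormone levels are not analysed here.

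The muscle identity of all 6 arrays was plain in the markers: Acta1, skeletal actin, lay between 14.17 and 14.24 on the log2 scale on all 9 arrays of the study, and the mean over 10 fibre markers lay between 0.03 below and 0.02 above its average on every array. Sham 2 and testosterone 2 stood apart from the rest. Their mean correlation with the other arrays over all genes was 0.973 and 0.983, against 0.990 to 0.991 for the other 7 arrays, and sham 2 had the narrowest spread of values, with an SD of 1.74 against 1.85 to 1.90. Markers of other cell types moved with these arrays. The mean of 13 adipocyte markers lay 0.94 above its average on sham 2, 0.77 on testosterone 2 and 0.27 on testosterone 1, and between 0.47 below and 0.00 on the other 6 arrays. The mean of 28 macrophage and lymphocyte markers lay 0.91 above on testosterone 2 and 0.27 above on sham 2, and below average on the other 7, while that of 13 tendon markers lay 0.66 below on sham 2. Where leaving out both arrays moved a named gene's difference by more than 1.5 times, the value without them is given beside it.

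No gene passed the test. Of 18193 genes compared between testosterone and sham, 0% reached an adjusted p of 0.05, and the smallest adjusted p was 0.780 (limma, Benjamini-Hochberg over all genes, threshold 0.05). Before adjustment, 481 genes (2.64%) lay higher with testosterone at p under 0.05, and 310 (1.7%) lower. Together these 791 genes are fewer than the 910 expected at that threshold if no gene differed. The 3 testosterone arrays lay wholly above the 3 sham arrays for 514 genes (2.83%) and wholly below them for 663 (3.64%). The median difference over all genes was 0.0075 on the log2 scale, with 52.1% of genes higher. Without sham 2 and testosterone 2, 0 genes passed (smallest adjusted p 0.998, limma) and 569 had an unadjusted p under 0.05, of which 275 (1.51%) were higher and 294 (1.62%) lower. Of the 791 genes with an unadjusted p under 0.05 on all arrays, 199 also had one in that smaller comparison, and all 199 kept their direction there. The smaller comparison uses arrays of the larger one, so the kept direction is no independent check. The count of 791 depended on single sham arrays, with 505 without sham 2 and 2479 without sham 3, and 1 gene passed the adjusted test when testosterone 3 was left out. The samples of each group are labelled as biological replicates.

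A p that misses the threshold does not show that the groups are alike, so the interval of each difference was used to say how large it could be. The 95% interval lay within 1 log2 unit (a factor of 2 in either direction) for 16907 genes (92.9%), and within 0.5 for 11729 (64.5%). Dim genes carry this share: it was 84.4% of the 5562 genes with a mean of at least 5, against 96.7% of the dimmer ones. The median of the interval's half-width was 0.283, the median absolute difference was 0.109 and the median SD within a group was 0.126. For the remaining 1286 genes a difference of 1 log2 unit or more was inside the interval and could not be settled with 3 arrays per group. A measured difference of 1 or more was seen for 12 genes higher and 2 lower with testosterone, and without sham 2 and testosterone 2 for 3 higher (Abcd2, Hnrnpu and Ppargc1a) and 1 lower (Col1a1). Over all genes, the sham and testosterone arrays other than sham 2 and testosterone 2 correlated with each other at 0.993 to 0.996, and sham 1 with sham 3 at 0.994. The castration arrays correlated with these sham arrays at 0.992 to 0.995 and with these testosterone arrays at 0.993 to 0.995. This correlation therefore does not tell the groups apart.

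The difference depended on the brightness of the gene. Among 10674 genes with a mean under 4 the median difference was -0.04, and it was 0.12 among 3470 genes from 4 to 6, 0.18 among 2462 from 6 to 8 and 0.05 among 1587 at 8 and over. The share of genes higher with testosterone was 37.3%, 70.1%, 83.1% and 64.0% in these 4 classes, so the 52.1% over all genes describes none of them. Without sham 2 the medians were -0.01, 0.02, 0.01 and -0.02. For each list below, the share of members higher, or lower, on all arrays is therefore set beside that of all genes at the same brightness. The latter averages the share of each member's class. Without sham 2 and testosterone 2, between 47.0% and 57.5% of all genes at the brightness of each list were higher. Renewed quantile normalisation turned the medians of some lists, among them IGF and mTOR signalling (to -0.07), endothelial markers (-0.06), atrophy and autophagy (-0.03), polyamine metabolism (-0.01) and cytosolic ribosome (-0.0064).

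**Figure D1:**
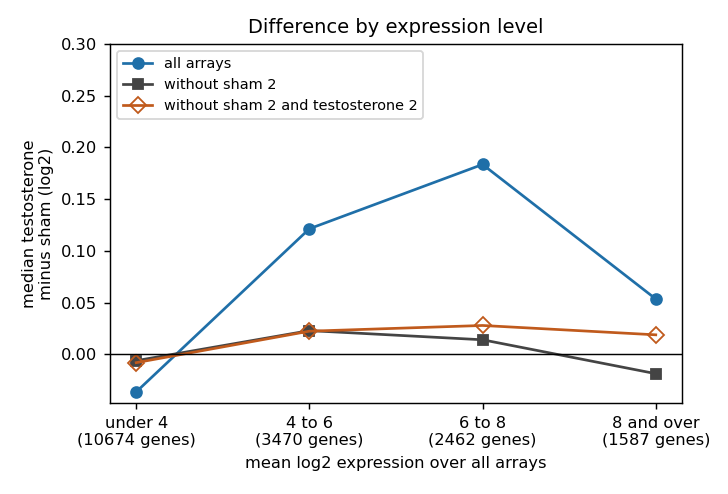
Median testosterone minus sham difference (log2) on the vertical axis for genes grouped by mean log2 expression on the horizontal axis, with the number of genes under each group. With all arrays the median reached 0.18 in the group from 6 to 8, and without sham 2, or without sham 2 and testosterone 2, every group's median lay between -0.02 and 0.03.

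Genes set apart by castration from both other groups were examined next. The contrast was castration against the mean of the other 6 arrays, which uses sham and testosterone equally. For genes alike in sham and testosterone, it favours neither side of the sham level. The 100 genes with the smallest p in it were taken as castration-shifted genes. Of these, 42 were lower and 58 higher in castration, with a median shift of 0.70, and 10 passed an adjusted p of 0.05 in that contrast. The median position of these genes relative to the sham mean, counted as negative towards castration, was -0.72, -0.69 and -0.62 on castration arrays 1, 2 and 3. On testosterone arrays 1, 2 and 3 it was 0.01, 0.13 and 0.07, and on the sham arrays, which enter their own mean, 0.03, -0.04 and -0.03. The castration positions describe the selection and are no test. The selection also favours genes that testosterone brought back, since a gene left at its castration level scores lower in that contrast. Ppargc1a, with means of 6.77 in sham, 7.55 in castration and 8.18 in testosterone, had a difference of 0.08 there and was not chosen. These positions therefore do not give the share of castration-moved genes that returned. The testosterone arrays lay at or past the sham level, and none lay between sham and castration in this median.

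The interval of the testosterone minus sham difference was within 1 log2 unit for 93 of the 100 genes. Testosterone lay past sham, away from castration, for 63 and short of sham for 37, with a median of 0.08 away from castration, which ranged from -0.0087 without sham 3 to 0.114 without testosterone 1 when single arrays were left out. Over all genes, signed in the same way, 42.3% lay past sham and the median was -0.03, and at the brightness and side of the 100 genes the share of all genes was 47.9%. At an unadjusted p under 0.05, 9 of the 100 genes lay past sham, where the share over all genes was 1.58%, and 0 lay short of it, where the share over all genes was 2.76%. Of these 9, 2 (Rgcc and Lpin1) also had an unadjusted p under 0.05 without sham 2 and testosterone 2. The shares of 1.58% and 2.76% are not matched for brightness. At that p, 110 of 10674 genes with a mean under 4 were higher with testosterone and 265 lower. Of 3470 genes from 4 to 6, 199 were higher and 32 lower, and of 2462 from 6 to 8, 128 and 7. Choosing genes by a small p also favours a small spread, which both contrasts share. Genes far short of sham are less readily among the 100, so the counts past and short of sham describe this selection and are no test. No gene of the 100 passed the adjusted test. The 42 genes that were lower in castration had a median of 0.22 past sham, with 35 past it (83.3%, against 70.4% of all genes at the same brightness), and the 58 that were higher had a median of -0.01, with 28 past it (48.3% against 31.6%). Without sham 2 and testosterone 2 these medians were 0.09 and -0.03, with 34 of the 42 (81.0% against 56.7%) and 26 of the 58 (44.8% against 44.1%) past sham.

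**Figure D2:**
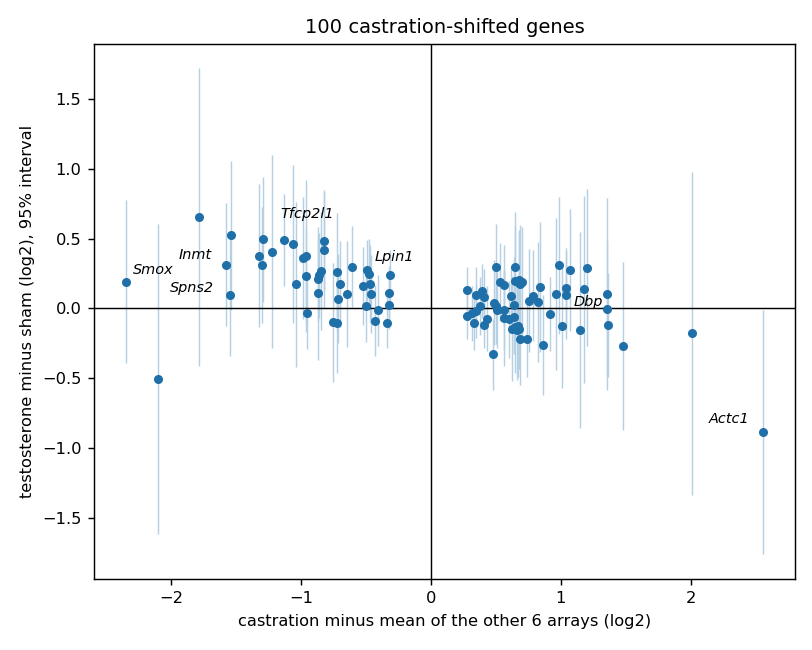
Each point is 1 of the 100 castration-shifted genes, with castration minus the mean of the other 6 arrays (log2) on the horizontal axis and testosterone minus sham (log2) with its 95% interval on the vertical axis. The points spread along the horizontal axis from -2.35 for Smox to 2.56 for Actc1, while 93 of the 100 vertical intervals stay within 1 log2 unit of 0.

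Polyamine enzymes and other androgen-responsive genes that were low in castration stood at the sham level or a little above it. Array values are given in the order of the replicate numbers. Smox, spermine oxidase, read 10.63, 9.65 and 10.09 in sham, 7.48, 8.09 and 8.03 in castration, and 10.15, 10.24 and 10.55 in testosterone. The sham and testosterone arrays overlapped, and every castration array lay below all of them. The difference from sham was 0.19 (SE 0.26, 95% interval -0.39 to 0.77), and it was -0.00 without sham 2 and testosterone 2. Odc1, ornithine decarboxylase, the first enzyme of polyamine synthesis, read 9.99, 9.17 and 9.95 in sham, 8.28, 8.69 and 8.73 in castration, and 9.94, 10.09 and 10.22 in testosterone. Sham 2 was the low array of its group, and the difference of 0.38 (SE 0.22) was 0.11 without sham 2 and testosterone 2. Fkbp5 read 7.99, 7.43 and 7.22 in sham, 6.30, 6.32 and 6.58 in castration, and 7.87, 7.78 and 7.92 in testosterone, a difference of 0.31 from sham (SE 0.18, interval -0.11 to 0.73). Sham 1 was the highest of all 9 arrays for Fkbp5, so the groups overlapped, and only 1 of its 3 probe sets, the one used, had this sign.

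Transporters and an enzyme of methylation followed the same pattern. Slc38a2, a neutral amino acid transporter, differed from sham by 0.46 (SE 0.25), with sham 2 at 8.02, as low as the castration arrays at 7.72 to 8.02, and sham 1 and sham 3 at 8.89 and 9.11 against 9.02 to 9.21 in testosterone. The difference of Slc38a2 was 0.19 without sham 2 and testosterone 2. Spns2, an exporter of sphingosine 1-phosphate, differed by 0.09 (SE 0.19), and by 0.02 without both arrays. Inmt, which methylates indoleamines, differed by 0.31 (SE 0.19), and by -0.02 without sham 2 and testosterone 2. Mss51, a muscle mitochondrial protein, read 11.89, 11.89 and 12.12 in sham, 10.99, 10.98 and 11.03 in castration, and 12.09, 11.71 and 12.01 in testosterone. Its difference of -0.03 had an interval of -0.29 to 0.23, and it was 0.04 without both arrays. For Mss51 any departure from sham was thus bounded well inside the gap of 0.97 between sham and castration.

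Genes that were high in castration were likewise close to sham with testosterone. Dbp, a clock-controlled transcription factor that binds D-box sites, read 7.72, 7.90 and 7.93 in sham, 8.97, 9.08 and 8.85 in castration, and 7.91, 8.26 and 7.83 in testosterone, a difference of 0.15 from sham (SE 0.13, interval -0.14 to 0.44) that was 0.04 without sham 2 and testosterone 2. Per3, a period gene of the circadian clock, read 4.43, 4.18 and 4.49 in sham, 5.33, 5.28 and 5.16 in castration, and 4.46, 4.15 and 4.37 in testosterone, a difference of -0.04 (SE 0.12, interval -0.31 to 0.23). For both genes the sham and testosterone arrays overlapped and the castration arrays lay above all 6. The sign of the difference from sham was that of 1 of the 2 probe sets of Dbp, the one used, and of 4 of the 6 of Per3. Over the 20 measured clock genes, 12 were higher and 8 lower with testosterone than in sham, with a median of 0.09 and 0 past the adjusted test, a share of 60.0% higher against 63.7% of all genes at the same brightness. The count was 17 higher and 3 lower, with a median of 0.11, without sham 2 and testosterone 2, and 9 higher and 11 lower, with a median of -0.02, without testosterone 1. Slc7a2, a transporter of arginine and other cationic amino acids, differed from sham by 0.10 (SE 0.14), and Sesn1, a stress-induced inhibitor of mTORC1 signalling, by -0.00 (SE 0.21). Myog, the myogenic factor myogenin, which denervated fibres express, read 4.38, 4.30 and 4.35 in sham, 5.93, 5.46 and 5.28 in castration, and 4.49, 4.97 and 4.40 in testosterone. Its testosterone arrays lay above the sham arrays and below the castration arrays, with a difference from sham of 0.28 (SE 0.19, interval -0.16 to 0.71). Testosterone 2 was the high array, and the difference was 0.08 without sham 2 and testosterone 2.

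**Figure D3:**
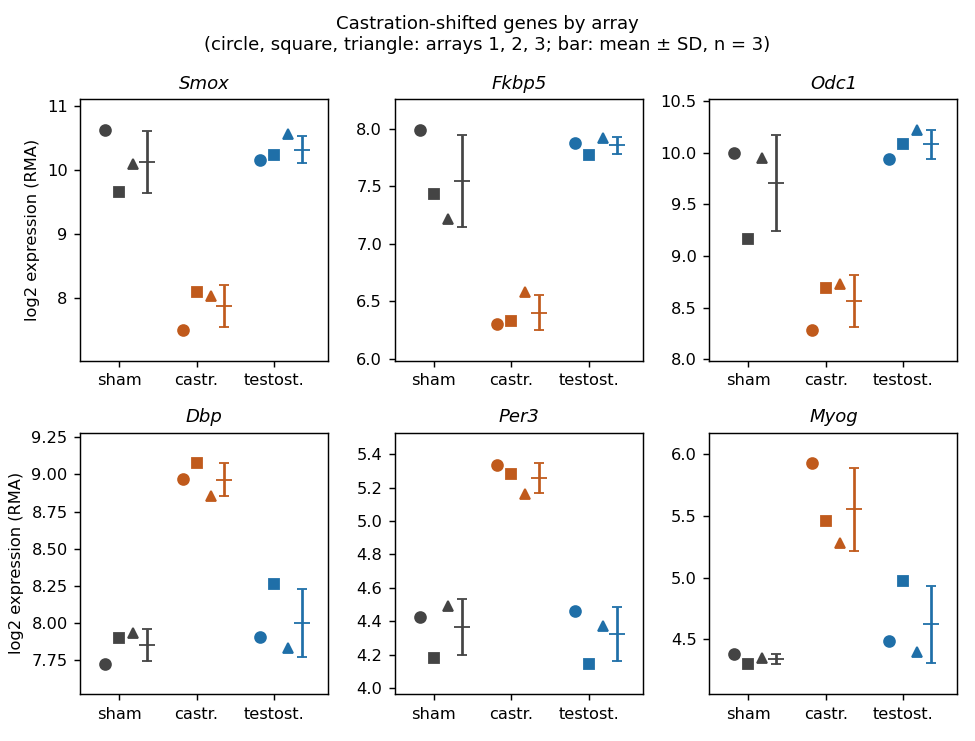
Log2 expression of 6 castration-shifted genes on each array (vertical axis) by group (horizontal axis, sham, castration and testosterone), with circles, squares and triangles for arrays 1, 2 and 3 and bars for the mean ± SD (n = 3). The testosterone points sit at the height of the sham points for Smox, Fkbp5, Odc1, Dbp and Per3, and for Myog slightly above them, at 4.40, 4.49 and, on testosterone 2, 4.97 against 4.30 to 4.38.

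Promoter sequences of 2 of these genes, 1 high and 1 low in castration, are shown because each holds a motif of the clock system to which Dbp and Per3 belong: the D-box bound by Dbp and its relatives in the promoter of Per3, and an E-box, bound by clock and related factors, in that of Fkbp5. They are the 250 bases before the start that the RefSeq promoter table uses, on GRCm38.p6, on the minus strand at chr4:151044666-151044915 and chr17:28486150-28486399, written 5′ to 3′ in the direction of the gene, with the motif in capitals.
Per3: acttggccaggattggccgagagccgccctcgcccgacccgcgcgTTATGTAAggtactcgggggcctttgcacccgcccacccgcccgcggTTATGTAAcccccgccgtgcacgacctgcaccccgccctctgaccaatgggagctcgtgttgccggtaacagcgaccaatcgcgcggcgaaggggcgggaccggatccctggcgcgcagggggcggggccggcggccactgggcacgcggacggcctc
Fkbp5: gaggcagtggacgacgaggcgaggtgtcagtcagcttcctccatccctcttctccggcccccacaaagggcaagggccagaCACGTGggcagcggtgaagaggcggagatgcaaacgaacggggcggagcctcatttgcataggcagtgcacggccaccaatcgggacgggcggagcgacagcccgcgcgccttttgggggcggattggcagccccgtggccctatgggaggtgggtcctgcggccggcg
The Per3 window holds 2 copies of the D-box TTATGTAA, 205 and 158 bases before the start, and the Fkbp5 window 1 copy of the E-box CACGTG, 169 bases before it, counted from the promoter table's start. The RefSeq gene table lists Per3 up to position 151044707, so the last 42 bases of its window lie inside the gene as listed there, and 0 bases of the Fkbp5 window do. Both strands were searched, and neither motif overlaps another one searched. Promoters of 83 of the 100 castration-shifted genes were in the table, of which 9 (10.8%) held the E-box, against 8.73% of all 14452 promoters of tested genes. The D-box was found in 1 of the 83 (1.2%), that of Per3, against 0.747% of all. The androgen response half-site AGAACA was in 8 (9.64%) against 14.7%, and the full palindromic androgen response element in 0 of the 83 and in 2 of all 14452. These are matches of letters in a short window and describe no binding.

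Among castration-shifted genes the testosterone arrays lay furthest past sham, relative to the error, for Tfcp2l1, Rgcc, Mfap4, Relb and Lpin1. None passed the adjusted test (limma, adjusted p 0.780 for each). Tfcp2l1, a transcription factor, read 4.43, 4.27 and 4.69 in sham, 3.72, 3.57 and 3.43 in castration, and 4.99, 5.14 and 4.73 in testosterone, a difference from sham of 0.49 (SE 0.14, interval 0.16 to 0.82) that was 0.30 without sham 2 and testosterone 2. The groups did not overlap, though testosterone 3 lay only just above sham 3, and 2 of the 3 probe sets of Tfcp2l1 had this sign. Rgcc, a cell cycle regulator that responds to complement and growth factors, read 7.37, 7.12 and 7.32 in sham, 6.34, 6.84 and 6.87 in castration, and 7.96, 7.60 and 7.69 in testosterone. Its difference was 0.49 (SE 0.16), and 0.48 without sham 2 and testosterone 2, with both of its probe sets of the same sign. Lpin1, lipin 1, a phosphatidate phosphatase of triglyceride synthesis that also acts with nuclear receptors, differed by 0.27 (SE 0.10), and by 0.26 without those arrays. The testosterone arrays of Lpin1, at 10.06, 9.83 and 9.99, lay above the sham arrays at 9.77, 9.54 and 9.76, which lay above castration at 9.30, 9.39 and 9.30.

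Relb, a subunit of NF-κB, differed by 0.24 (SE 0.08) at a low level of 3.76 to 4.13 in these groups. Mfap4, a microfibril protein of the matrix, was the mirror image: its testosterone arrays, at 3.48, 3.64 and 3.86, lay below sham at 4.02, 4.01 and 3.93, and castration lay above at 4.31, 4.40 and 4.18. Actc1, the cardiac actin that skeletal muscle expresses before birth and in regeneration, read 7.37, 8.59 and 8.74 in sham, 10.73, 10.02 and 10.30 in castration, and 7.90, 6.98 and 7.17 in testosterone. Its difference of -0.89 from sham had a wide interval of -1.76 to -0.01 and was -0.53 without sham 2 and testosterone 2, and sham 1 lay inside the testosterone range, so the groups overlapped. The remaining 3 of the 9 genes past sham at an unadjusted p under 0.05 were Hr, a corepressor of nuclear receptors, at 0.49, Piezo1, a mechanically gated channel, at 0.42, and Pkdcc, a secreted kinase, at 0.30. They are named after their values were seen, to complete the count, and each was nearer to sham without sham 2 and testosterone 2, at 0.20, 0.16 and 0.10. Only 1 of the 2 probe sets of Hr had this sign, against 1 of 1 for Piezo1 and 2 of 2 for Pkdcc.

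The genes furthest short of sham relative to the error stayed closer to sham than to castration. Ppp1r1a, a phosphatase inhibitor, read 7.89, 7.35 and 7.74 in sham, 8.41, 8.30 and 8.21 in castration, and 7.92, 7.97 and 7.99 in testosterone, a difference of 0.30 from sham (SE 0.13, interval -0.00 to 0.60) that was 0.14 without sham 2 and testosterone 2. Its testosterone arrays lay between the other groups, the lowest just above sham 1. Ppp3ca, the catalytic subunit of calcineurin, which links calcium to slow fibre genes, differed by 0.13 (SE 0.07) against a gap of 0.34 between sham and castration. Wnt4, a secreted ligand, differed by 0.30 (SE 0.17) against a gap of 0.80. Trim35, a ubiquitin ligase, differed by 0.19 (SE 0.12) against 0.63, and Adnp2, a zinc finger protein, by 0.12 (SE 0.09) against 0.45. These differences were 0.09 for Ppp3ca, 0.13 for Wnt4, 0.09 for Trim35 and 0.07 for Adnp2 without sham 2 and testosterone 2. None of the 5 genes had an interval that excluded 0.

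Some castration-shifted genes could not be placed well on all arrays, as their arrays differed widely within sham and, for Cyp2e1, within testosterone too. Cyp2e1, a cytochrome P450 that metabolises ethanol and ketones, read 6.13, 7.94 and 6.77 in sham, 4.60, 4.39 and 4.78 in castration, and 6.83, 6.96 and 5.54 in testosterone, with an interval of the difference from -1.61 to 0.61, and its difference of -0.50 was -0.27 without sham 2 and testosterone 2. Slc2a3, the glucose transporter GLUT3, read 6.07, 4.14 and 6.14 in sham, with sham 2 at the level of castration (3.75, 4.06 and 4.16), and 5.94 to 6.37 in testosterone, a difference of 0.65 that was 0.08 without both arrays. Mybph, a myosin binding protein, read 7.36, 9.57 and 8.87 in sham and 9.05, 8.08 and 8.13 in testosterone, and its castration arrays at 10.30, 10.55 and 10.72 lay above all of these. Its difference turned from -0.18 to 0.48 without both arrays. These 3 genes were chosen after their values were seen.

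Genes outside the castration-shifted set gave the smallest p-values of the comparison. The 12 higher genes with the smallest p were Scaper, Fbrsl1, Malat1, Dgkd, Ppargc1a, Exosc3, Fam241a, Hnrnpu, Pgap2, Pcif1, Gnl2 and Rnmt, with differences of 0.36 to 1.42. All 12 had testosterone arrays wholly above the sham arrays, as a small p with 3 arrays a group nearly requires. Their sign without sham 2 and testosterone 2 was thereby fixed, and the smallest difference there was 0.29. The adjusted p of each was 0.780 (limma). For 7 of the 12, all probe sets of the gene had the same sign. In all 12 the castration mean lay between sham and testosterone, so that the difference between sham and castration had the same sign as that between sham and testosterone. Both differences share the sham arrays, and sham 2 was the lowest sham array for 10 of the 12.

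Ppargc1a, the coactivator PGC-1α, which drives mitochondrial biogenesis and oxidative metabolism in muscle, had the largest difference of these genes. It read 7.31, 6.20 and 6.80 in sham, 7.60, 7.91 and 7.14 in castration, and 8.33, 8.35 and 7.88 in testosterone. The testosterone arrays lay above every sham array, and 2 of the 3 lay above every castration array. The difference was 1.42 (SE 0.29, interval 0.75 to 2.09), a factor of 2.67, with all 5 probe sets of the same sign, and it was 1.05 without sham 2 and testosterone 2. Hnrnpu, a nuclear RNA-binding protein, read 9.33, 8.97 and 8.43 in sham, 9.77, 9.88 and 9.48 in castration, and 10.46, 10.39 and 9.57 in testosterone. Its difference was 1.23 (SE 0.28), with all 5 probe sets of the same sign, and testosterone 3 lay close to the castration arrays.

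Malat1, a nuclear long noncoding RNA, read 8.72, 8.45 and 8.80 in sham, 9.23, 9.51 and 9.21 in castration, and 9.49, 9.88 and 9.23 in testosterone, a difference of 0.88 (SE 0.17). Dgkd, a diacylglycerol kinase, differed by 0.52 (SE 0.11), with testosterone arrays at 6.55, 6.56 and 6.53 and sham arrays at 6.02, 5.86 and 6.22, though only 2 of its 4 probe sets had this sign. Rnmt, the methyltransferase of the messenger RNA cap, differed by 0.53 (SE 0.13), Pcif1, which methylates the first transcribed adenosine, by 0.67 (SE 0.16), and Gnl2, a nucleolar GTPase of ribosome assembly, by 0.36 (SE 0.09). Exosc3, a subunit of the RNA exosome, differed by 0.49 (SE 0.11) and Pgap2, an enzyme of lipid anchor maturation, by 0.91 (SE 0.21). Scaper, Fbrsl1 and Fam241a differed by 0.67, 0.58 and 0.45. Abcd2, a peroxisomal transporter of very long chain fatty acids and chosen after its values were seen, differed by 1.38 (SE 0.40), with sham at 3.76, 4.19 and 4.98 and testosterone at 6.13, 6.05 and 4.88, so that 1 testosterone array overlapped sham. Of the 4 probe sets of Abcd2, 3 had this sign.

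The 12 lower genes with the smallest p were Syne4, Abca2, Clec4g, Nbl1, Ap5s1, Lmbr1l, Prom2, Ces5a, Zfp553, Eda, Srbd1 and Muc4, with differences between -0.47 and -0.28. Of these, 11 had a mean under 5 on the log2 scale, near the lower end of the values, where probe sets carry little signal. Syne4, a nuclear envelope protein, read 3.96, 4.01 and 3.68 in sham, 3.37, 3.31 and 3.30 in castration, and 3.44 on each testosterone array. Ces5a, a carboxylesterase and the brightest of the 12, read 6.47, 6.38 and 6.41 in sham and 6.18, 6.09 and 6.15 in testosterone, a difference of -0.28 (SE 0.07). Castration lay between sham and testosterone for 11 of the 12, and beyond testosterone for Syne4. Sham 2 was the highest sham array for 8 of the 12. All probe sets of the gene had the same sign for 8 of the 12 as well.

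**Figure D4:**
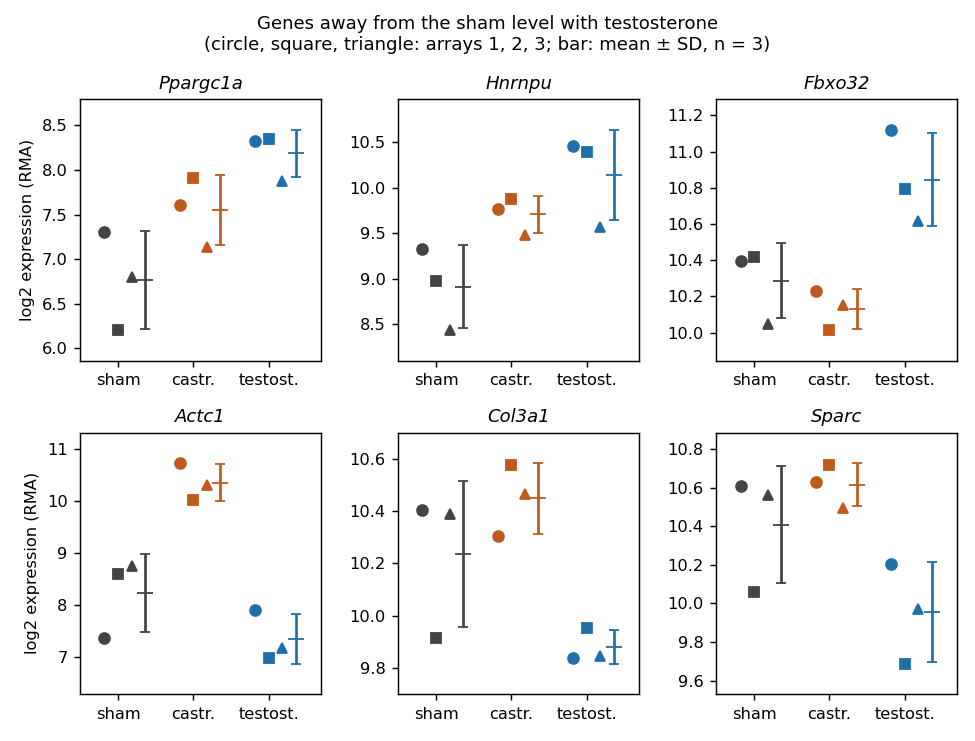
Log2 expression of 6 genes on each array (vertical axis) by group (horizontal axis), with circles, squares and triangles for arrays 1, 2 and 3 and bars for the mean ± SD (n = 3). The testosterone points of Ppargc1a, Hnrnpu and Fbxo32 lie above all sham points, while for Actc1, Col3a1 and Sparc 1 sham point lies within the testosterone range.

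Of the ubiquitin ligases of muscle wasting, Fbxo32 lay above sham and above castration with testosterone. Fbxo32, atrogin-1, a ubiquitin ligase of muscle atrophy, read 10.39, 10.42 and 10.05 in sham, 10.23, 10.01 and 10.15 in castration, and 11.12, 10.79 and 10.62 in testosterone. The testosterone arrays lay above all 6 of the other arrays. The difference from sham was 0.56 (SE 0.15, interval 0.21 to 0.90; limma adjusted p 0.780), and 0.65 without sham 2 and testosterone 2, with 2 of 3 probe sets of this sign. Trim63, MuRF1, the other ligase classically induced in atrophy, differed by 0.18 (SE 0.11), with overlapping arrays. Over the 34 measured genes of atrophy and autophagy, 23 were higher and 11 lower, with a median of 0.07, or 0.03 without both arrays. The share higher, 67.6%, lies beside 65.7% of all genes at the same brightness.

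The adult myosin heavy chains did not stand away from sham. Myh4, the fast IIB isoform that dominates this muscle, read 13.70, 13.67 and 13.78 in sham and 13.76, 13.75 and 13.73 in testosterone, with an interval of -0.13 to 0.19. Myh1, the IIX isoform, differed by -0.09 (interval -0.31 to 0.14), and Myh2, the IIA isoform, by -0.01 (interval -0.28 to 0.25). The differences were 0.01 for Myh4, -0.14 for Myh1 and -0.11 for Myh2 without sham 2 and testosterone 2. Myh7, the slow isoform, differed by 0.46 (interval -0.35 to 1.27), with 12.60 on testosterone 2 and 11.20 to 11.93 on the other 5 arrays. Its difference was 0.00 without those arrays. Over the 37 measured genes of fibre type and sarcomere, 19 were higher and 18 lower, with a median of 0.00, a share of 51.4% higher against 63.1% of all genes at the same brightness.

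Of 25 measured myogenic regulators, 14 were higher and 11 lower (56.0% higher, against 61.6% of all genes at the same brightness), with a median of 0.02. Cdh15, M-cadherin of satellite cells, differed by 0.29 (SE 0.09), with testosterone arrays at 5.02, 5.05 and 4.94 above sham at 4.54, 4.86 and 4.74. It was 1 of 10 satellite cell markers, of which 5 were higher and 5 lower, with a median of 0.04. Of 19 measured neuromuscular junction genes, 12 were higher and 7 lower (63.2% against 59.8%). Runx1, which denervation induces, differed by -0.34 (SE 0.10), with 5 of 6 probe sets of this sign, and Chrne, the adult acetylcholine receptor subunit, by 0.55 (SE 0.23), which was 0.21 without sham 2 and testosterone 2. Of 28 calcium handling genes, 19 were higher and 9 lower (67.9% against 66.7%), with a median of 0.09, and Asph, which yields junctin and other calcium-binding products, differed by 0.40 (SE 0.16), or 0.23 without both arrays.

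Growth signalling gave no gene past the test. Of 30 measured genes of IGF and mTOR signalling, 21 were higher and 9 lower, with a median of 0.09 that was 0.02 without sham 2 and testosterone 2. The share higher, 70.0%, lies beside 71.4% of all genes at the same brightness. Igf1, the growth factor, read 6.99, 3.86 and 6.49 in sham and 6.34, 4.87 and 6.54 in testosterone. Arrays 2 of both groups were low, and the interval of -1.61 to 1.89 places no useful bound on the difference, which turned from 0.14 to -0.30 without both arrays. Tsc1, a brake on mTORC1, differed by 0.63 (SE 0.25), with sham 2 lowest at 6.38, and by 0.18 without sham 2 and testosterone 2. Of 18 polyamine genes, 13 were higher and 5 lower (72.2% against 64.0%), with a median of 0.06, or 0.04 without both arrays, and Agmat, agmatinase, differed by -0.32 (SE 0.13).

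In energy metabolism, genes of the respiratory chain lay at or slightly below sham beside the high Ppargc1a. Of 34 measured genes of oxidative phosphorylation and its regulators, 28 (82.4%) were lower and 6 higher than in sham, where 33.7% of all genes at the same brightness were lower, with a median of -0.06. Without sham 2 and testosterone 2, 23 were lower and 11 higher, with a median of -0.02. The intervals of 32 of the 34 lay within 1 log2 unit. Ppargc1b, the related coactivator PGC-1β, differed by 0.34 (SE 0.18), or 0.12 without both arrays. Of 22 fatty acid oxidation genes, 11 were higher and 11 lower on all arrays, and 5 higher and 17 lower, with a median of -0.06, without both arrays. Of 30 genes of glycolysis and glycogen, 12 were higher and 18 lower (60.0% lower against 36.8%), with a median of -0.03. Without both arrays 18 were higher and 12 lower, with a median of 0.02.

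Of 33 measured genes of lipid and sterol synthesis, 25 (75.8%) were higher and 8 lower with testosterone, where 63.0% of all genes at the same brightness were higher, with a median of 0.15 and of 0.12 without sham 2 and testosterone 2. The median was -0.01 without testosterone 2 alone, which together with sham 2 had the highest adipocyte marker levels, and the part of adipocytes in this list was not tested. Srebf1, the sterol and lipid synthesis factor SREBP-1, read 7.82, 8.06 and 7.99 in sham, 7.47, 8.05 and 7.76 in castration, and 8.46, 8.25 and 8.17 in testosterone, a difference of 0.34 (SE 0.15). Mlxipl, the glucose-sensing factor ChREBP, differed by 0.30 (SE 0.11), or 0.15 without sham 2 and testosterone 2. Both had testosterone arrays wholly above sham. Adipoq, adiponectin, made only by adipocytes, read 6.65, 9.16 and 8.26 in sham, 5.54, 5.58 and 5.29 in castration, and 8.47, 9.21 and 5.45 in testosterone. It varied more within sham and within testosterone than between them, with a difference of -0.31 that was -0.50 without both arrays, and was chosen after its values were seen. In bulk muscle, more adipocytes and more RNA per adipocyte cannot be told apart.

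Hormone and stress lists were read against their brightness as well. Of 30 measured androgen response genes, a list that holds several of the castration-shifted genes above and was drawn up with earlier results of these data known, 25 (83.3%) were higher than in sham, against 64.3% of all genes at the same brightness, with a median of 0.18 that was 0.08 without sham 2 and testosterone 2 and 0.04 without sham 2 alone. Zbtb16, a zinc finger factor induced by androgens and glucocorticoids, differed by 0.56 (SE 0.29) and by 0.05 without both arrays, and Azgp1, a lipid-mobilising glycoprotein, by -0.48 (SE 0.15). Of 27 glucocorticoid response genes, 22 (81.5%) were higher, against 66.8% of all genes at the same brightness, with a median of 0.16 that was 0.05 without both arrays. Gadd45g, a stress-induced gene, read 7.35, 7.28 and 6.91 in sham, 7.21, 6.39 and 6.79 in castration, and 7.78, 7.81 and 7.80 in testosterone. Its testosterone arrays lay above all 6 others, with a difference from sham of 0.62 (SE 0.20), and 0.66 without both arrays. Cebpd, a transcription factor of the acute phase, differed by 0.69 (SE 0.28), with overlapping arrays, as sham 3 read 4.87 and testosterone 3 read 4.62, and by 0.37 without both arrays.

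Of 28 immediate early genes, 22 (78.6%) were higher, against 62.4% of all genes at the same brightness, with a median of 0.14, or 0.05 without both arrays. Fos, Atf3 and Junb, which stimuli induce within minutes, differed by 0.50 (SE 0.19), 0.51 (SE 0.20) and 0.27 (SE 0.10) at levels under 5, and by 0.30, 0.30 and 0.15 without both arrays. Of 22 heat shock and chaperone genes, 15 (68.2% against 65.6%) were higher, with a median of 0.04 that was -0.04 without sham 2. Hsp90aa1, an inducible HSP90 and partner of steroid receptors, differed by 0.81 (SE 0.28), but sham 2 at 5.93 lay far below sham 1 and sham 3 at 6.93 and 6.92, and the difference was 0.31 without both arrays. Of 33 proteasome genes, 25 (75.8% against 64.0%) were higher, with a median of 0.10 that was 0.01 without both arrays, and Psmd1, a subunit of the regulatory particle, went the other way with -0.34 (SE 0.12). Hlf, a relative of Dbp, differed by 0.83 (SE 0.37), with 5.86 on testosterone 2 and at most 4.37 on testosterone 1 and testosterone 3, and by 0.26 without both arrays.

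The position of the extracellular matrix genes depended on which arrays were compared. Of 52 measured genes, 36 (69.2%) were lower and 16 higher with testosterone, where 35.4% of all genes at the same brightness were lower, with a median of -0.09, and none passed the adjusted test. Without sham 2 and testosterone 2, 48 of the 52 were lower, with a median of -0.25 against 0.0028 over all genes, and 18 had an unadjusted p under 0.05 in that direction, where the share over all genes was 1.62%. Leaving out sham 2 alone gave -0.24, and leaving out sham 1 or sham 3 alone gave 0.02 and 0.03. Fibroblast markers followed, with 7 of 12 lower and a median of -0.04 on all arrays and 10 of 12 lower and a median of -0.19 without both arrays, and tendon markers, with medians of 0.02 and -0.19. On all arrays 58.3% of fibroblast markers were lower, against 28.7% of all genes at the same brightness, and 46.2% of tendon markers against 36.4%. Sham 2 had low fibroblast and tendon markers, 0.48 and 0.66 below their average, and testosterone 2 lay 0.17 and 0.29 below. Testosterone 3 was 0.19 and 0.10 below, and testosterone 1 was 0.06 and 0.08 above. The part of connective tissue content in the list was not tested.

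Among the collagens, Col3a1 read 10.40, 9.91 and 10.39 in sham, 10.31, 10.57 and 10.46 in castration, and 9.84, 9.95 and 9.85 in testosterone. Sham 2 lay inside the testosterone range and sham 1 and sham 3 lay above it. The difference was -0.36 (SE 0.14), and -0.55 without both arrays. Col1a1 read 9.39, 7.95 and 9.31 in sham, 9.42, 9.57 and 9.09 in castration, and 8.31, 7.92 and 8.11 in testosterone, and its difference of -0.77 (SE 0.35) was -1.14 without both arrays. Sparc, osteonectin, a collagen-binding matrix protein, read 10.61, 10.06 and 10.56 in sham, 10.63, 10.72 and 10.50 in castration, and 10.21, 9.69 and 9.97 in testosterone, a difference of -0.46 (SE 0.18), and -0.50 without both arrays. These 3 genes were chosen after their values were seen. Ctsk, cathepsin K, a collagen-degrading protease, differed by -0.32 (SE 0.12), and Timp3, an inhibitor of matrix metalloproteases, by 0.44 (SE 0.16), or 0.28 without both arrays.

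**Figure D5:**
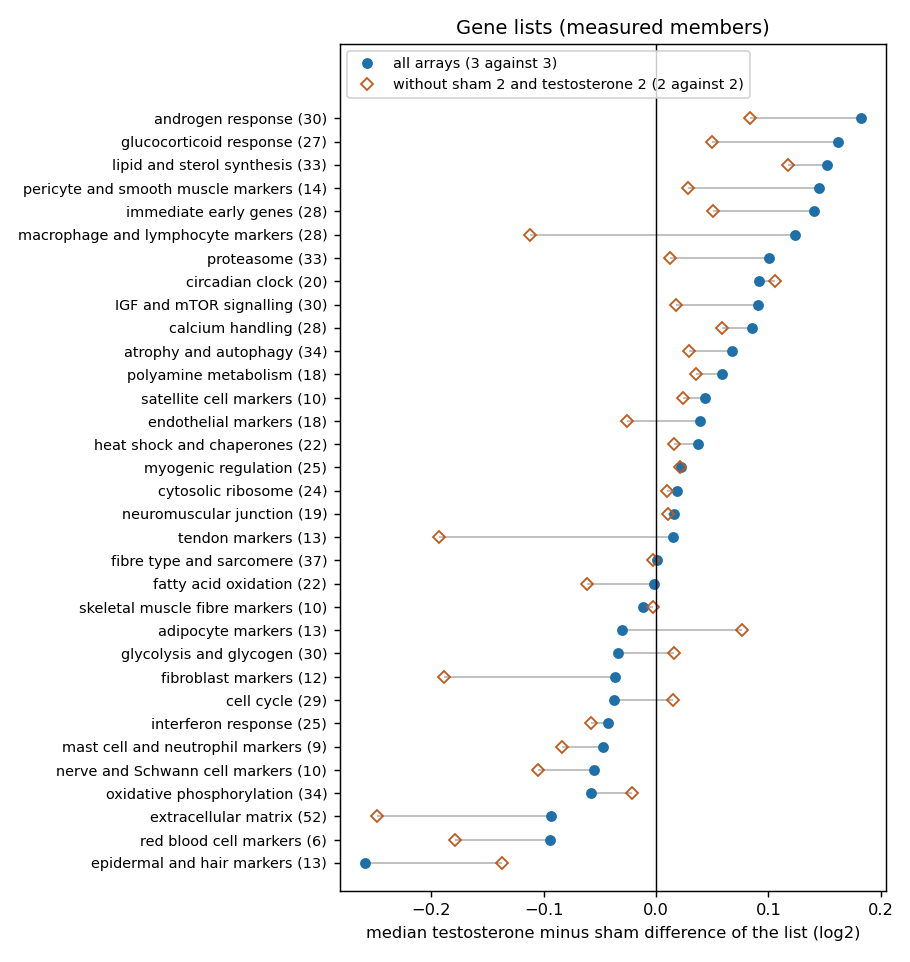
Median testosterone minus sham difference (log2, horizontal axis) of each gene list (vertical axis, number of measured members in brackets), with filled circles for all arrays and open diamonds without sham 2 and testosterone 2. Extracellular matrix moves from -0.09 to -0.25 and macrophage and lymphocyte markers from 0.12 to -0.11 when those arrays are left out. Lipid and sterol synthesis is at 0.15 and 0.12, though at -0.01 without testosterone 2 alone, which is not drawn.

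Other cell types showed small shifts, and 0 of their markers passed the adjusted test. Macrophage and lymphocyte markers had a median of 0.12 on all arrays, with 18 of 28 higher (64.3%, against 50.7% of all genes at the same brightness). Without sham 2 and testosterone 2 their median was -0.11, with 22 of 28 lower. Endothelial markers had a median of 0.04, with 11 of 18 higher (61.1% against 71.6%), and of -0.03 without both arrays. Cldn5, the tight junction claudin of endothelium, differed by 0.34 (SE 0.10), with testosterone arrays at 5.73, 5.66 and 5.54 above sham at 5.39, 5.15 and 5.35. Epidermal and hair markers were lower for 11 of 13 (84.6% against 57.6%), with a median of -0.26, and for all 13, with a median of -0.14, without both arrays. Sham 2 lay 0.45 and sham 1 lay 0.14 above their average for these markers, and Krt14, a basal keratin, read 3.57, 3.49 and 3.22 in sham and 3.02, 3.15 and 3.11 in testosterone, all near the lower end of the values. Medians of the other marker lists on all arrays were as follows: pericyte and smooth muscle markers at 0.14 with 9 of 14 higher, satellite cell markers at 0.04 with 5 of 10, nerve and Schwann cell markers at -0.05 with 8 of 10 lower, mast cell and neutrophil markers at -0.05 with 6 of 9 lower, and red blood cell markers at -0.09 with 5 of 6 lower. Without both arrays these medians were 0.03, 0.02, -0.11, -0.08 and -0.18. Cytosolic ribosome genes had a median of 0.02, with 16 of 24 higher (66.7% against 60.9%), and cell cycle genes of -0.04, with 18 of 29 lower (62.1% against 51.2%), and of 0.02 without both arrays. Adipocyte markers had a median of -0.03 on all arrays (53.8% lower against 45.9%) and of 0.08 without both arrays. Interferon response genes had a median of -0.04, with 15 of 25 lower (60.0% against 52.4%), and Ifit3, an interferon-induced protein, read 4.98, 4.79 and 5.19 in sham and 3.87, 3.60 and 4.89 in testosterone, with testosterone 3 inside the sham range. Without testosterone 3 the interferon median was 0.01.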

How the data were processed

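Sample titles gave the groups and replicate numbers. The authors deposited log2 values for each probe set, computed with RMA (background correction, quantile normalisation and summary of probes) per the submitters' processing notes, in a version not named there. No further normalisation was applied. Of 45101 probe sets, 64 were controls, 34945 were listed to 1 gene in the platform annotation, 932 to several and 9160 to none, and 204 found no match by gene identifier. The brightest probe set by mean over all arrays stood for each of 18193 genes. Of the 9160 unlisted probe sets, tested separately, 0 passed and 454 had an unadjusted p under 0.05. Arrays have no read depth, and 3 arrays per group limit the precision.

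Differences were tested with limma 3.58.1 (lmFit, eBayes) in R 4.3.3 on all 9 arrays with group as the only term, two-sided, with Benjamini-Hochberg adjustment over all genes and a threshold of 0.05. The code was tested on simulated data. Castration-shifted genes were those passing for castration against the mean of the other 6 arrays or, where under 50 passed, as here, the 100 with the smallest p. Of 33 gene lists, 21 of processes and 12 of cell markers, members with no probe set of their own (77 in all) were left out, and no set test was run. A list's level on an array is the mean of its genes' deviations from their means over all arrays.

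Genes are named by rule: the 12 with the smallest p in each direction, up to 3 per list with the smallest p and the 2 brightest of each marker list, the 5 castration-shifted genes furthest past and short of sham relative to the error, and a set of 23 genes, of which 21 had a probe set of their own. The members and lists were chosen with earlier results of these data known. Promoters are RefSeq sequences on GRCm38.p6. Alternatives tried were a replicate block, the 6 arrays alone, the choice of probe set, a filter on dim genes, normalisation, the variance model, array weights, and leaving out arrays.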

Additional observations from a re-analysis of the deposited data

How the results depend on the processing

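The 4 overall results were recomputed under each alternative. The number of genes past the adjusted threshold was 0 under every alternative except leaving out testosterone 3, where 1 gene passed (leave-one-out range 0 to 1): Marf1, with a difference of 1.47 and an adjusted p of 0.0319, named after its values were seen. With the replicate number as a block, 0 genes passed, 555 had an unadjusted p under 0.05 (354 higher, 201 lower), 16875 intervals lay within 1 log2 unit and the median of the castration-shifted genes was 0.066. Whether the numbers pair the arrays cannot be settled from so few arrays. Same-numbered sham and testosterone arrays deviated together with correlations of 0.268, 0.222 and -0.187. The count at an unadjusted p under 0.05, 791 in the report, was 379 with the sham and testosterone arrays alone, 1637 over all probe sets, 206 among genes with a mean of at least 5, 2399 with array weights, and 505 (without sham 2) to 2479 (without sham 3) when 1 array was left out. Of these genes, 60.8% were higher in the report's setting, 45.9% after renewed quantile normalisation and 70.5% after median centring, and 197 of the 206 at a mean of at least 5. Intervals within 1 log2 unit numbered 32535 over all probe sets and 4687 of the 5562 genes with a mean of at least 5. The median of the castration-shifted genes was -0.039 with array weights, where it is over the 149 genes that then passed in that contrast (59 past sham, 90 short of it), and -0.0087 (without sham 3) to 0.114 (without testosterone 1) when 1 array was left out. The causes were not tested.

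Of 91 named genes, 75 kept 1 sign under all settings tried, and none but Marf1 was called in any. Where the testosterone and sham arrays of a gene did not overlap, leaving out arrays could not turn its sign. Signs turned, relative to the report, as follows. Averaging each gene's probe sets gave -0.012 for Ppp3ca, -0.014 for Igf1 and 0.084 for Sesn1. Without probe sets ending in _x_at or _s_at, Dbp was -0.12, Sesn1 0.11 and Slc2a3 -0.078. With renewed quantile normalisation, Slc7a2 was -0.092 and Spns2 -0.057. With median centring, Mss51 was 0.0039, Myh2 0.021 and Sesn1 0.031. With array weights, Fkbp5 was -0.0025, Myh7 -0.081, Smox -0.18, Spns2 -0.066, Mss51 0.084, Igf1 -0.62, Sesn1 0.19, Adipoq 0.27 and Mybph 0.88. Without sham 2 and testosterone 2, Inmt was -0.022, Smox -0.0048, Mss51 0.044, Igf1 -0.30 and Mybph 0.48. With 1 array left out, Smox ranged from -0.043 to 0.44, Spns2 from -0.12 to 0.23, Igf1 from -0.82 to 0.74, Sesn1 from -0.17 to 0.21, Adipoq from -1.06 to 0.82, Slc2a3 from -0.00063 to 1.00, Mybph from -0.80 to 0.31, Per3 from -0.13 to 0.049, Mss51 from -0.10 to 0.081 and Myh2 from -0.088 to 0.12. Signal over background limits the genes with a mean under 5, among them 11 of the 12 lower genes named first.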
